A study of Mus musculus with 12 samples.

Results

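Sinusoidal endothelial nuclei of mouse liver were divided by 10 genes into a central side and a portal side, named after the central vein and the portal tract. Position in the lobule was not measured, and both sides were compared within each liver on the remaining genes. The nuclei were those that the authors' table called endothelial cells and placed in cluster 3 in the Liver samples. For each nucleus, C was the number of unique molecular identifiers (UMIs, each standing for 1 captured RNA molecule) of Wnt2, Wnt9b, Rspo3, Kit and Thbd, and P was the number of UMIs of Dll4, Efnb2, Ltbp4, Ntn4 and Efnb1. A nucleus was put on the central side when C was at least 2 and above P, and on the portal side when P was at least 1 and above C. Of 1982 nuclei of this cluster, 568 were on the central side, 899 on the portal side and 515 on neither. The cluster held 1982 of the 2472 endothelial nuclei among 20024 Liver nuclei, in a series of 53467 annotated nuclei. Because the sides were chosen by measured UMIs, the UMIs of the 10 genes are given as a description, and each gene was tested only with sides chosen by the other 9.

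The series is single-nucleus RNA sequencing of 8 mice, each sampled as Liver, as Cell Suspension (cells freshly released from the organ) and as Primary Hepatocytes (the same cells cultured as a monolayer). All animals were adult, chow-fed, wild-type male mice of the C57BL/6 strain, labelled C57BL6J and described in the methods as C57BL/6NTac, and the labels name no further allele. The Liver and Cell Suspension samples with the same number came from the same organ, in 6 sequencing pools of 4 hashtagged samples. Cell Suspension was prepared as a source of hepatocytes and was used only to repeat the comparison in the 1068 nuclei of cluster 3 found there.

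Liver sinusoidal endothelial cells line the capillaries through which blood runs from the portal tract to the central vein of each lobule. Along this path they are graded: central cells release Wnt ligands and R-spondin 3, which hold the pericentral programme of neighbouring hepatocytes, and portal cells carry more Notch ligand and ephrin-B2, both also known from arteries. Nuclei, unlike whole cells, hold much unspliced RNA, and all spliced and unspliced UMIs were summed here.

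Each mouse gave 24 to 191 central nuclei (median 53) and 63 to 188 portal nuclei (median 99). The central share of the cluster ran from 15.4% to 43.3% between mice and the portal share from 40.2% to 52.5%. The summed UMIs of a side and mouse ran from 84952 to 982895 on the central side and from 167195 to 886527 on the portal side, so central values rested on fewer molecules in most mice. Central nuclei were deeper: the ratio of the median UMIs per nucleus, central over portal, was 1.25 ± 0.199 (SD, n = 8 mice) and above 1 in 8 of 8 mice. UMIs per nucleus enter the choice, and the ratio was 1.12 ± 0.112 (above 1 in 8 of 8 mice) where both sides needed 1 UMI and 1.18 ± 0.194 (7 of 8) where both needed 2. Just inside the central threshold stood 102 nuclei with C of 2 (median 2956 UMIs), and just outside it 124 nuclei with C of 1 and P of 0 (median 2138.5 UMIs). Just inside the portal threshold were 158 nuclei with P of 1 and C of 0 (median 2204.5 UMIs), next to 244 nuclei with no UMI of any of the 10 genes (median 1353 UMIs). The split was not clean, since 758 nuclei held UMIs of both sets. No cell barcode was shared between pools among the members, and 15 members shared theirs with an annotated nucleus of another pool. No mouse was left out of the Liver comparison.

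Endothelial markers were present on both sides. Of 22 pan-endothelial genes tested 0 were called, against 1.64% of all genes tested, a share at which a list of this size is near 0 as well, with a median log2 difference of 0.03. Ptprb, the vascular endothelial phosphatase, which had the most counts of them, ran from 3263 to 5739 CPM (normalized counts, scaled to a common library size; median 4963) on the central side and from 3826 to 5882 CPM (median 4641) on the portal side. Its log2 difference, central over portal, was 0.04 ± 0.0667 (SE, n = 8 mice, adjusted p = 0.993). Summed over the 26 genes of sinusoidal identity, the central level was 13694 to 19383 CPM and the portal level 11281 to 18181 CPM, with overlapping ranges and a higher central sum in 6 of 8 mice. In bulk sums of this kind, fewer nuclei carrying an RNA and less of it per nucleus cannot be told apart.

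The 10 genes that made the sides were uneven in what they contributed. Kit, the receptor for stem cell factor, gave 2427 of the UMIs on the central side and was seen in 528 of 568 central nuclei (93%). Wnt2 was seen in 349 of them (61.4%), Rspo3 in 112 (19.7%) and Wnt9b in 62 (10.9%). On the portal side Ntn4, a netrin, gave 2707 UMIs, Efnb2 810 and Ltbp4 626, against 205 for Dll4 and 137 for Efnb1. The central side was therefore chosen mostly by Kit and Wnt2, and the portal side mostly by Ntn4.

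With a gene taken out of the choice, 8 of the 10 still differed between sides chosen by the other 9. Rspo3, the R-spondin that potentiates Wnt signals at the central vein, ran from 88.8 to 468 CPM (median 273) over the 8 central sums and from 3.01 to 71.6 CPM (median 11.6) over the portal ones. Its log2 difference was 3.89 ± 0.194 (SE, adjusted p = 3.82e-85), with every central sum above every portal sum. Wnt2 stood at 82.3 to 405 CPM (median 275) against 29.1 to 112 CPM (median 85.9), a log2 difference of 1.76 ± 0.147 (adjusted p = 7.11e-30). The Wnt ligand of the central vein itself, Wnt9b, had 106 UMIs in 565 central nuclei and 3 UMIs in 899 portal nuclei (adjusted p = 6.86e-18). Rspo3, Wnt2 and Wnt9b were thus each higher on a central side that the gene itself had not chosen. The others of them took part in each choice, so these tests are not independent of one another. Kit could be tested in 7 mice, since without it only 237 central nuclei were left, and ran from 600 to 1092 CPM (median 817) there and from 242 to 436 CPM (median 289.8) on the portal side. The log2 difference of Kit was 1.40 ± 0.126 (adjusted p = 1.63e-25). Thrombomodulin, Thbd, was sparse at 37 and 17 UMIs and did not pass the test (log2 difference 1.28 ± 0.504, adjusted p = 0.326, higher in 5 of 8 mice).

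Of the portal genes, ephrin-B2 (Efnb2) ran from 21.2 to 110 CPM (median 79.7) on the central side and from 194 to 261 CPM (median 217) on the portal side, with no overlap. It was lower centrally by a log2 value of -1.55 ± 0.151 (adjusted p = 1.14e-21). Ntn4 was lower by -1.76 ± 0.102 (adjusted p = 2.46e-63), at 151 to 290.4 CPM against 408 to 1012 CPM. Both again separated the sides in all 8 mice. Ltbp4, which binds latent TGF-beta in the matrix, had a log2 difference of -0.94 ± 0.155 (adjusted p = 3.01e-07), and the ephrin Efnb1 of -1.46 ± 0.319 (adjusted p = 0.000575, 7 of 8 mice), a call that was lost without mouse 5 (log2 difference -1.19). The Notch ligand Dll4 did not pass in Liver: it was portal-high in 6 of 8 mice, with 10 to 56.2 CPM centrally and 29.1 to 87.8 CPM on the portal side (log2 difference -0.57 ± 0.244, adjusted p = 0.425). In Cell Suspension the same left-out comparison gave Dll4 -2.46 (adjusted p = 0.0018). No test was made of whether Dll4 differed between the sample types.

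**Figure D1:**
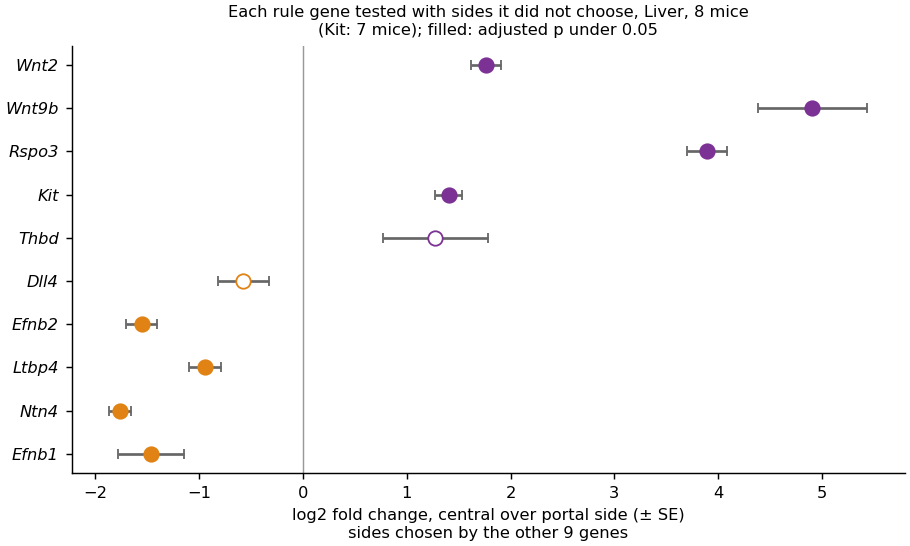
Log2 fold change, central over portal side, of each of the 10 rule genes in Liver, with the sides chosen by the other 9 genes. Points are estimates over 8 mice (7 for Kit), bars are 1 SE, purple marks central and orange portal genes, and the open points of Thbd and Dll4 are the only ones that did not pass the test.

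Across the other genes, 232 of 14181 tested (1.64%) differed between the sides of the same liver at an adjusted p under 0.05. Of these, 115 (0.811% of those tested) were higher on the central side and 117 (0.825%) on the portal side. The median size of a called difference was 0.717 on the log2 scale, and 1055 genes had an unadjusted p under 0.05. For 14 genes every central sum lay above every portal sum, and for 20 the reverse held. The median of all genes tested was -0.047, so values below are close to differences relative to the bulk of genes. With the sides matched in nuclei per mouse within bands of depth (532 nuclei each), 208 genes were called, 181 of them among the 232. When every nucleus was thinned to 1000 UMIs before the sides were chosen, which left 267 central and 632 portal nuclei and in mouse 6 only 9 central nuclei, below the minimum of 10, 82 were called, 67 of them among the 232. Without mouse as a block 95 genes were called. Applying the rule with the 490 endothelial nuclei of other clusters included gave 824 central and 1109 portal nuclei. With these, 642 genes were called, 203 of them among the 232.

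**Figure D2:**
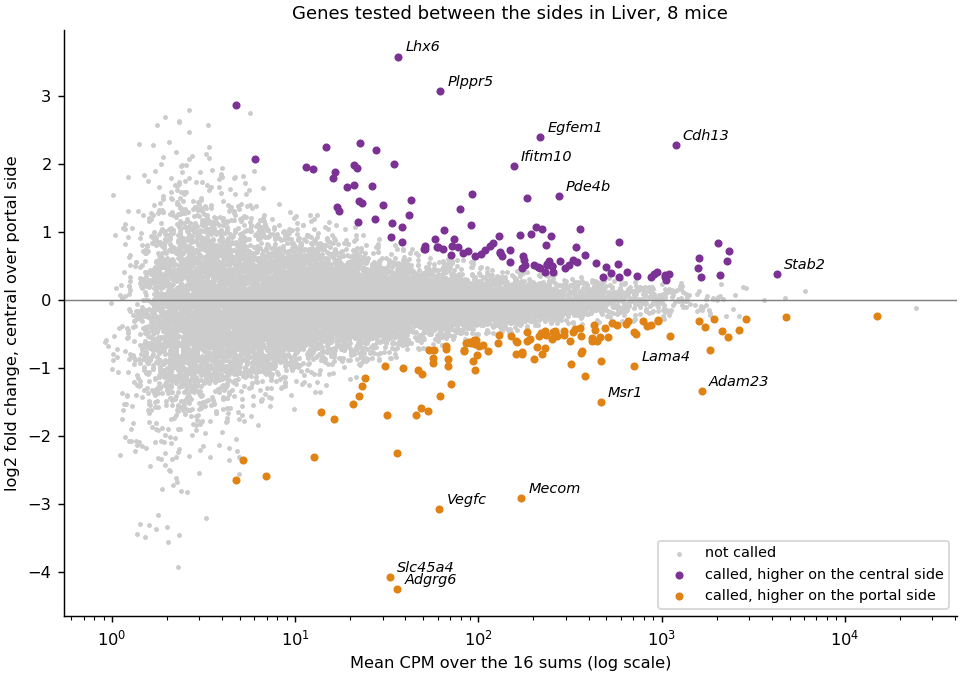
Log2 difference, central over portal, against mean CPM over the 16 sums (log axis) for the 14181 genes tested in Liver, with the 232 called genes coloured by direction. The called genes of largest size, Lhx6 and Plppr5 above and Adgrg6 and Slc45a4 below, have low to middle levels, and Cdh13 and Adam23 stand out at high level.

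The largest central differences were in a transcription factor, several membrane proteins and secreted ligands. Lhx6, a LIM homeobox factor (chr2:36081953-36105408, minus strand, GRCm38), ran from 15.5 to 144 CPM (median 67.2) on the central side and from 0 to 11.7 CPM (median 5.05) on the portal side. It was 11.9-fold higher centrally (log2 difference 3.57 ± 0.339, adjusted p = 4.90e-23) on 153 and 16 UMIs, and no portal sum reached a central one. Plppr5, a membrane protein related to lipid phosphatases (chr3:117574836-117689507, plus strand), stood at 43.2 to 158 CPM (median 108) against 3.72 to 29.2 CPM (median 15.9), an 8.4-fold difference (adjusted p = 3.33e-32). Cdh13, the lipid-anchored T-cadherin that binds adiponectin (chr8:118283733-119324921, plus strand), ran from 1425 to 2776 CPM (median 1949) and from 235 to 677 CPM (median 372). Its log2 difference of 2.28 ± 0.0866 had the smallest adjusted p of all genes, 1.25e-147. The fit pools its estimate of spread over genes, so this p does not measure the spread of Cdh13 between mice alone. These 3 separated the sides in all 8 mice, and Cdh13 did so on 4895 and 1342 UMIs. Ifitm10, of the interferon-induced transmembrane family (chr7:142325837-142373753, minus strand), was at 185 to 345 CPM against 32.8 to 99.2 CPM (log2 difference 1.97 ± 0.151, adjusted p = 4.28e-35), again without overlap. Pde4b, which degrades cyclic AMP, ran from 308 to 678 CPM centrally and from 85.5 to 197 CPM on the portal side (log2 difference 1.53 ± 0.119, adjusted p = 2.73e-34).

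Secreted ligands, a receptor-associated protein and a transcription factor followed. Ntf3, the neurotrophin-3 ligand, ran from 55.5 to 254 CPM (median 135) on the central side and from 17.5 to 92.2 CPM (median 32.8) on the portal side (log2 difference 1.55 ± 0.182, adjusted p = 1.03e-14). C1qtnf7, of the C1q and TNF related family, was at 18.5 to 86 CPM against 2.49 to 24.8 CPM (log2 difference 1.68 ± 0.321, adjusted p = 3.02e-05). Both were higher centrally in 8 of 8 mice although their ranges overlapped. Shisa9, known as an auxiliary protein of glutamate receptors, had a log2 difference of 1.50 ± 0.14 (adjusted p = 1.27e-23), and the zinc finger factor Zfp423 of 1.47 ± 0.254 (adjusted p = 1.49e-06).

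Egfem1, Fam19a2 and Piezo2 completed the central set, and all 3 had higher levels in stellate nuclei than in endothelial nuclei of the same samples. Egfem1, with EGF-like and EMI domains, ran from 222 to 555 CPM (median 337) centrally and from 22.4 to 104 CPM (median 61.1) on the portal side (log2 difference 2.39 ± 0.139, adjusted p = 1.85e-62), against 1274 CPM over all Liver stellate nuclei. Piezo2, a mechanically gated ion channel, was at 14.8 to 96.1 CPM against 2.37 to 20.9 CPM (log2 difference 2.20 ± 0.344, adjusted p = 4.77e-08), and at 682 CPM in stellate nuclei. Fam19a2, a chemokine-like secreted protein, was at 10.8 to 66.1 CPM against 0 to 18.6 CPM (log2 difference 2.31 ± 0.342, adjusted p = 5.48e-09), and at 290.0 CPM in stellate nuclei. The summed level of the 15 stellate markers was not higher on the central side: it was 82.4 to 467 CPM (median 273) there and 206 to 606 CPM (median 321) on the portal side, and central was higher in 2 of 8 mice. Nuclei holding 2 or more UMIs of the Kupffer, stellate, leukocyte or cholangiocyte list were then left out. Hepatocyte lists were not used for this, here or wherever nuclei with markers of other cell types are left out below. With the 327 central and 511 portal nuclei that remained, the log2 differences were 2.38 for Egfem1, 2.38 for Piezo2 and 2.54 for Fam19a2, all still called. Egfem1 overlaps 4 other annotated genes on its strand, among them Mir551b and Mir21b, whose reads could be counted with it.

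The portal pair of largest difference, Adgrg6 and Slc45a4, had few UMIs in central nuclei, while Msr1 was at 160.4 CPM or more there. Adgrg6, an adhesion G-protein-coupled receptor (chr10:14402583-14545659, minus strand), ran from 0 to 10.8 CPM (median 1.63) on the central side and from 12.2 to 125 CPM (median 62.4) on the portal side. It was 19-fold higher on the portal side (log2 difference -4.25 ± 0.363, adjusted p = 2.05e-28), on 9 and 243 UMIs. Slc45a4, a solute carrier (chr15:73577424-73645762, minus strand), was at 0 to 12.3 CPM against 23.3 to 154 CPM (log2 difference -4.08 ± 0.386, adjusted p = 4.08e-23), on 8 and 193 UMIs. For both, even the lowest portal mouse lay above the highest central one. Vegfc, the lymphangiogenic growth factor (chr8:54077606-54187096, plus strand), ran from 0 to 20.6 CPM (median 12) and from 40.7 to 166 CPM (median 114), 8.42-fold higher on the portal side (adjusted p = 8.66e-31). Mecom, a zinc finger transcription factor of endothelial and blood stem cells (chr3:29951296-30548008, minus strand), was at 5.18 to 75.3 CPM (median 41.3) against 164 to 566 CPM (median 292), a log2 difference of -2.91 ± 0.166 (adjusted p = 5.71e-65). Msr1, a scavenger receptor first known from macrophages (chr8:39581685-39642673, minus strand), ran from 160.4 to 375 CPM and from 383 to 1038 CPM (log2 difference -1.50 ± 0.105, adjusted p = 1.07e-42). All 5 separated the sides without overlap.

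The remaining portal genes overlapped in range but were lower centrally in 8 of 8 mice. Adam23, a disintegrin that binds integrins without protease activity (chr1:63445891-63596276, plus strand), was at 395 to 1909 CPM centrally and 1892 to 3592 CPM on the portal side (log2 difference -1.34 ± 0.0796, adjusted p = 3.83e-60). Tox2, an HMG-box factor, was at 0 to 44.5 CPM against 37.2 to 71.6 CPM (log2 difference -2.25 ± 0.289, adjusted p = 3.21e-12). Unc13b, a vesicle priming factor, differed by -1.63 ± 0.234, the non-coding gene Gm35533 by -1.69 ± 0.248, fibrillin-1 (Fbn1) by -1.58 ± 0.235 and the glycosyltransferase Galnt15 by -1.42 ± 0.214 on the log2 scale, with adjusted p from 1.41e-09 to 1.20e-08. Clca3a1, of the chloride channel accessory family, had the highest adjusted p of these genes (log2 difference -1.52 ± 0.351, adjusted p = 0.00164). Its call was lost in 6 of 26 settings. These were without mouse 3 (-1.527, adjusted p = 0.0592), DESeq2, no block, thinned depth, and unspliced or spliced counts alone. Over whole cell types in Liver, Vegfc was also found in stellate nuclei at 402 CPM (201 CPM in endothelial nuclei), and Msr1 and Slc45a4 in Kupffer nuclei at 589 and 121 CPM. The 15 Kupffer markers summed to 92 to 317 CPM centrally and 143 to 229.9 CPM on the portal side, with medians of 170.0 and 171 CPM. Without nuclei carrying markers of other types the differences were -3.65 for Vegfc, -1.65 for Msr1 and -5.75 for Slc45a4, all called.

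**Figure D3:**
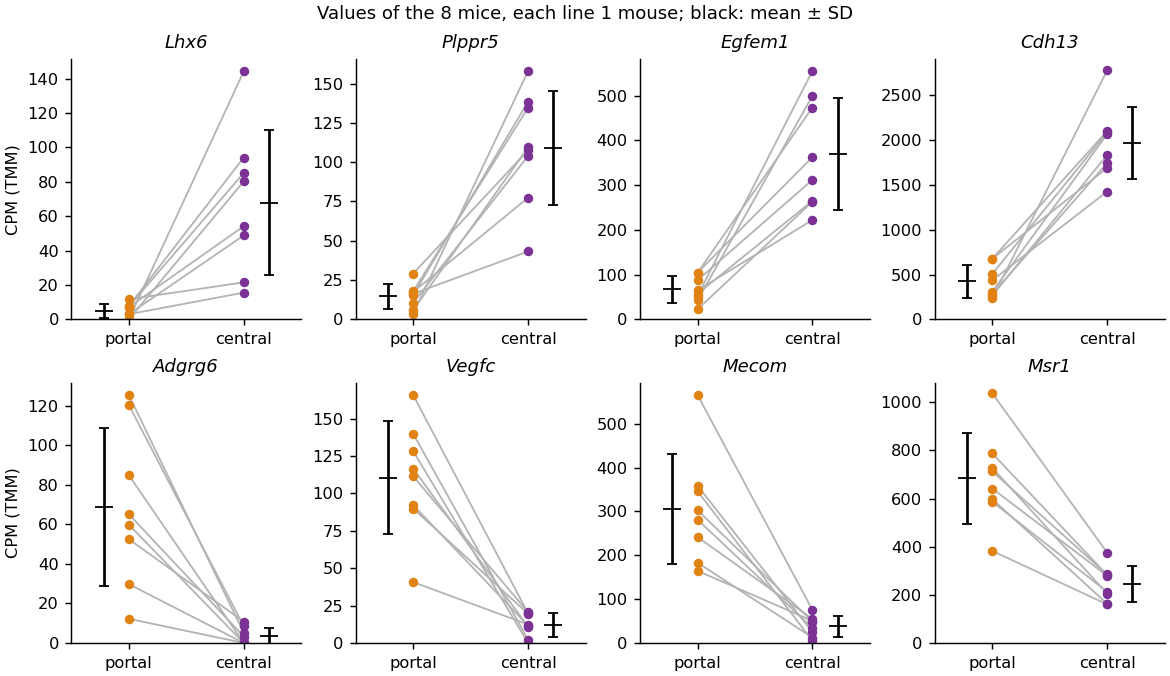
Level (CPM, scaled by TMM) of 4 leading central genes (top row) and 4 leading portal genes (bottom row) in the portal and central sums of the 8 Liver mice, with a line for each mouse and the mean ± SD in black. In each of the 8 panels every line runs the same way and the points of both sides do not overlap, as for Cdh13 at 235 to 677 CPM on the portal side and 1425 to 2776 CPM on the central side.

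Start-site sequences of these genes were read from the RefSeq promoter table (build GRCm38.p6), which held 8 of the 12 largest central genes and 9 of the 12 largest portal ones. Shown are the central and the portal pair of largest difference that have a single entry, each from 250 bases before to 50 bases after the start. They are an example of what lies at the start of genes that differ between the sides. Capitals mark a match to a motif of a factor known in endothelium, and no capitals mean that none of the searched letters occurred. The windows are chr3:117574977-117575276 (plus strand) for Plppr5, chr5:43515319-43515618 (plus) for C1qtnf7, chr10:14544987-14545286 (minus) for Adgrg6 and chr8:54077282-54077581 (plus) for Vegfc.
Plppr5: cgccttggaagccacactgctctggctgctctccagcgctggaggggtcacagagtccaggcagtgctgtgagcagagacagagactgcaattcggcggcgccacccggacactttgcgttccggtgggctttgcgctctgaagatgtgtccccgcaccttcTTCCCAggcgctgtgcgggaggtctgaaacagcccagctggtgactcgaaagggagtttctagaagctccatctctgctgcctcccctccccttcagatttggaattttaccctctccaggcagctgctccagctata
C1qtnf7: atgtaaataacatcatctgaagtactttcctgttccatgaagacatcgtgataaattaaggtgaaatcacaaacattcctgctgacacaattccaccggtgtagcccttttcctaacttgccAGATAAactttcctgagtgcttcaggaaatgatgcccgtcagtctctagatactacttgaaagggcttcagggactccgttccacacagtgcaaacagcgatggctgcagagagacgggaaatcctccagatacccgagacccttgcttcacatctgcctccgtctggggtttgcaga
Adgrg6: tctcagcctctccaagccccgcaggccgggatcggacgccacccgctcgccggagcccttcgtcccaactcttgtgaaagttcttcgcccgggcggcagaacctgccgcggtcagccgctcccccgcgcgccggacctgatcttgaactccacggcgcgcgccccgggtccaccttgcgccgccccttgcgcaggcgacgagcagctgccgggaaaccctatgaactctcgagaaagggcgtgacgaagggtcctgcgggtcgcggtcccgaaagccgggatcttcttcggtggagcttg
Vegfc: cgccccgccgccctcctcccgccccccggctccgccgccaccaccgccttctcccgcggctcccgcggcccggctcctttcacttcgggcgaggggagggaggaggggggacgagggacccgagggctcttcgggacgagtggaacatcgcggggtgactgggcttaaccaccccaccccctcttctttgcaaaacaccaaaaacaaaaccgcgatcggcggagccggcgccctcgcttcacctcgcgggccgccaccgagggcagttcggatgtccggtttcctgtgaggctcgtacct
The match in Plppr5 is TGGGAA on the opposite strand (bases 163 to 168 of the window), the core of the Notch effector RBPJ, and that in C1qtnf7 is AGATAA (bases 123 to 128), a GATA motif. On both strands, TGGGAA was found in 4 of the 8 central genes and 2 of the 9 portal genes with entries, against 25.6% of 32851 promoters. The TCF/LEF letters CTTTGAT or CTTTGTT, through which Wnt signals act, were found in 1 and 2 genes against 9.33% of promoters. The ETS letters GGAAGT were found in 3 and 0 genes against 23.8%, and AGATAA in 1 and 0 against 11.2%. TGGGAA and GGAAGT can share bases, as they do in Zfp423. Genes with several entries had more windows in which to match, and these counts describe letters, not bound sites.

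Genes of the 24 lists are given next, beside the 1.64% called of all genes tested, and several of their calls depended on the setting. The lists were chosen with earlier results of these data known. Their shares, here and in Cell Suspension, are therefore a description and not independent support. Among the 21 to 27 settings in which a gene could be tested, the call was lost in 12 for Jag1, 10 for Ephb4 and Smad3, 8 for Nkd1 and Gucy1b1, 7 for Hgf and Plxnc1, 6 for Apc, Flrt2, Ednrb and Selp, 5 for Bmper and Tfec, 4 for Dkk3 and Fabp4, and 3 for Gas6, Lrp5, Piezo2, Stab2 and Tshz2. In the list of 14 venous and central vein genes, 7 of 11 tested genes were called on the central side, where 0.811% of all genes tested were, none on the portal side, and the median log2 difference was 1.25. Beside Cdh13 and Lhx6 they included Ptgs1, the constitutive cyclooxygenase, at 92.5 to 143 CPM (median 115) centrally and 30.9 to 65.1 CPM (median 45.7) on the portal side (log2 difference 1.34 ± 0.188, adjusted p = 3.48e-10). Every central sum of Ptgs1 lay above every portal one. Plvap, the diaphragm protein of fenestrae and caveolae (1.99 ± 0.362, adjusted p = 8.65e-06), the fatty acid binding protein Fabp4 (1.25 ± 0.249, adjusted p = 8.13e-05) and the venous receptor Ephb4 (0.48 ± 0.126, adjusted p = 0.0105) were also higher centrally, each in 7 of 8 mice. Fabp4 was not called without the mouse block, when thinned, or without nuclei with Rspo3 or Wnt9b or with markers of other cell types. The call of Ephb4 was lost without mouse 3, 5 or 8 (log2 difference 0.40 to 0.4957). Selp, P-selectin, rested on 23 and 3 UMIs (adjusted p = 0.026), a ratio of CPM of 9.99 with an exact 95% counting interval from 3.02 to 52, and its call was lost without mouse 1, 2, 3 or 5 (fitted log2 difference 2.60 to 2.92, adjusted p up to 0.293). Of the 20 arterial and portal genes, 13 were tested, and 5 were called, all portal-high (0.825% of all genes tested were), with a median of -0.27 over the 13. Beside Msr1, Vegfc and Adgrg6 these were the fatty acid translocase Cd36, at 148 to 278 CPM centrally and 301 to 621 CPM on the portal side without overlap (-0.94 ± 0.113, adjusted p = 7.06e-14), and the Notch ligand Jag1 (-1.15 ± 0.334, adjusted p = 0.0397, 7 of 8 mice). Jag1 lost its call without mouse 2, 5, 6 or 7 (-1.15 to -0.79) and with DESeq2.

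Beyond the ligands that made the sides, 31 Wnt genes were tested. Of these, 3 were called higher centrally and 2 on the portal side (16.1%, against 1.64% of all genes tested), with a median of -0.12. Lrp5, a Wnt co-receptor, ran from 240.2 to 365 CPM on the central side and from 152 to 238 CPM on the portal side (0.57 ± 0.119, adjusted p = 0.000286), without overlap. Nkd1, a Wnt target and inhibitor, differed by 0.71 ± 0.182 (adjusted p = 0.00749) and Dkk3 of the Dickkopf family of Wnt inhibitors by 1.79 ± 0.41 (adjusted p = 0.0015), each higher centrally in 7 of 8 mice. The destruction complex scaffold Apc (-0.37 ± 0.0943, adjusted p = 0.00897) and beta-catenin itself, Ctnnb1 (-0.62 ± 0.177, adjusted p = 0.0341), were lower centrally in 8 of 8 mice. Apc lost its call with DESeq2 (-0.33), without the block and with matched depth (-0.30). The call of Ctnnb1 was lost in 17 of 27 settings, among them RLE scaling, DESeq2 and leaving out mouse 1, 2, 3, 6, 7 or 8 (-0.6858 to -0.5605, adjusted p 0.0597 to 0.143). Dkk3 and Nkd1 lost their calls with DESeq2, with spliced counts alone and without nuclei with Rspo3 or Wnt9b, and Dkk3 also when thinned. Nkd1 lost its call without mouse 2 (0.54) and was at -0.04 when thinned.

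Among 20 Notch genes tested, 2 were called centrally and 1 on the portal side (15.0%, against 1.64% of all genes tested, median -0.06). Lfng, the fringe enzyme that changes which ligand Notch answers to, was higher centrally at 6.86 to 67.3 CPM against 0 to 9.03 CPM (2.25 ± 0.451, adjusted p = 9.79e-05, 8 of 8 mice), as was the coactivator Maml3 (0.41 ± 0.0842, adjusted p = 0.000129). Jag1 was the portal one, with the losses given above. Of 10 Eph and ephrin genes not used by the rule, Ephb4 alone was called (10.0%). In the guidance list of semaphorins, plexins, netrins and slits, 3 of 33 (9.09%) were called: Sema3d at 32.3 to 86.4 CPM against 0 to 48.3 CPM (2.00 ± 0.287, adjusted p = 1.29e-09) and the semaphorin receptor Plxnc1 (0.37 ± 0.0837, adjusted p = 0.00113, not called without mouse 2 at 0.28) centrally, and Flrt2 on the portal side (-0.97 ± 0.202, adjusted p = 0.000238, 6 of 8 mice). Flrt2 was not called with DESeq2, without the block, thinned (-0.18) or without nuclei with markers of other cell types (-0.74).

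In the sinusoidal and scavenger list 4 of 26 genes were called (15.4%, against 1.64% of all genes tested). Stab2, the hyaluronan receptor stabilin-2, was modestly higher centrally at 3436 to 6073 CPM (median 5004) against 2491 to 4428 CPM (median 3842), by 0.38 ± 0.0675 (adjusted p = 4.08e-06, 7 of 8 mice), a call lost without the mouse block, when thinned and over all endothelial clusters. The transcription factor Tfec followed it (0.52 ± 0.128, adjusted p = 0.00467, not called without mouse 2 at 0.45), while Msr1 and Cd36 lay on the portal side. The other 22 genes were not called, and the list's median was 0.04.

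Transcription factors gave 7 calls among 47 tested, 4 central and 3 portal (14.9%, against 1.64% of all genes tested), with a median of -0.05. Zfpm2, the GATA cofactor FOG2, ran from 528 to 1029 CPM centrally and from 320.1 to 528 CPM on the portal side (0.85 ± 0.0942, adjusted p = 9.65e-17), and every central sum was above every portal one. Tshz2 was higher centrally in 8 of 8 mice (0.47 ± 0.0773, adjusted p = 3.00e-07), with Lhx6 and Tfec. Meis1, a homeobox factor (-0.61 ± 0.111, adjusted p = 9.14e-06), and Zeb2 (-0.30 ± 0.0847, adjusted p = 0.0252) were portal-high beside Mecom. Zeb2 lost its call in 13 of 27 settings, with RLE scaling, with DESeq2 and without mouse 4, 5, 6 or 7 (-0.2958 to -0.2378). Only Lhx6 and Mecom among the 7 had differences over 1 on the log2 scale.

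Signals to neighbouring cells were called on the portal side in 3 cases and on the central side in 1, among 29 tested (13.8%, against 1.64% of all genes tested, median -0.12). Kitl, the ligand of Kit, was at 85.1 to 226 CPM centrally and 138 to 285 CPM on the portal side (-0.76 ± 0.139, adjusted p = 1.04e-05, 7 of 8 mice), opposite to its receptor. Hgf, the hepatocyte growth factor, was lower centrally in 8 of 8 mice (-0.51 ± 0.123, adjusted p = 0.00354), and it is also a stellate marker of the list given above, which summed lower centrally in 6 of 8 mice. Without nuclei with markers of other cell types, the stellate ones among them, Hgf was at -0.41 and not called (adjusted p = 0.898). UMIs of Hgf itself counted toward that filter, so the lost call cannot be told apart from the removal of its own UMIs. Hgf was also not called with DESeq2 or without the block. Gas6, a ligand of TAM receptors, was higher centrally at 32.3 to 124 CPM against 27 to 61.1 CPM (1.02 ± 0.2, adjusted p = 5.73e-05). In the VEGF, angiopoietin and PDGF list, 3 of 19 (15.8%, against 1.64%) were called and all were portal-high: Vegfc, Kitl and the insulin receptor Insr (-0.90 ± 0.102, adjusted p = 1.12e-15, 7 of 8 mice). In the BMP and TGF-beta list, Bmpr2 (-0.48 ± 0.0904, adjusted p = 2.64e-05, 8 of 8 mice) and the BMP-binding protein Bmper (-0.93 ± 0.215, adjusted p = 0.0017) were portal-high and Smad3 was central-high (0.51 ± 0.135, adjusted p = 0.0111), of 28 tested (10.7%, against 1.64%). Smad3 lost its call without mouse 1, 2, 5 or 8 (0.4452 to 0.4808) and Bmper without mouse 3 (-0.7769).

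Matrix genes were called in both directions. Lama4, the laminin alpha chain of vessel walls, ran from 387 to 574 CPM centrally and from 787 to 1074 CPM on the portal side (-0.98 ± 0.0913, adjusted p = 1.27e-23), without overlap. The type IV collagen chains Col4a1 (0.47 ± 0.125, adjusted p = 0.0142) and Col4a2 (0.55 ± 0.145, adjusted p = 0.0107) were higher centrally, each in 7 of 8 mice, with Lama3 (0.66 ± 0.189, adjusted p = 0.0333) and biglycan, Bgn (0.85 ± 0.251, adjusted p = 0.0443). These 4 central calls were each lost with DESeq2 and without the block, and over all settings by Lama3 and Bgn in 16 of 27, Col4a1 in 11 and Col4a2 in 10, where it was at -0.30 when thinned. With 1 mouse left out, Bgn was lost without mouse 1, 2, 3, 5, 6 or 8 (0.7664 to 0.9891) and Lama3 without mouse 1, 2, 3, 5 or 8 (0.5377 to 0.6473). Col4a1 was lost without mouse 1, 6 or 8 (0.3954 to 0.4164) and Col4a2 without mouse 1 or 4 (0.4534 to 0.4649). The other called portal gene was Adam23, and 28 of the 34 tested were not called (17.6% were, against 1.64% of all genes tested, median -0.10). Itga9, an integrin of lymphatic vessels and sinusoids, was portal-high at 1160.0 to 1480.0 CPM against 805 to 1015 CPM (-0.53 ± 0.0821, adjusted p = 2.50e-08) and without overlap. Of 5 lymphatic genes tested it was the 1 called. Cdh13 and Selp were the other calls among 34 adhesion and junction genes (8.82% called, against 1.64%, median -0.01).

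Of 20 genes of coagulation, vessel tone and shear sensing, Ptgs1 and Piezo2 were called centrally, and Ednrb and Gucy1b1 on the portal side (4 calls, against 1.64% of all genes tested, median 0.20). Ednrb, the endothelin B receptor, had 19 and 86 UMIs (-1.74 ± 0.412, adjusted p = 0.0024, portal-high in 6 of 8 mice), and was not called without mouse 3 (-1.435) or 7 (-1.382). Gucy1b1, a subunit of the nitric oxide receptor guanylate cyclase, had 5 and 35 UMIs, a ratio of 0.186 with an exact 95% counting interval from 0.0569 to 0.477 (adjusted p = 0.0392). Its call was lost without the block and without mouse 1, 2, 3 or 5 (fitted log2 difference -2.344 to -2.024, adjusted p up to 0.563). Among 20 lipid and prostanoid genes, Ptgs1 and Fabp4 were called centrally and Cd36 on the portal side (15.0%, against 1.64%), with a median of -0.17.

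RNA of other cell types was present on both sides. The 20 general hepatocyte genes took 0.340% ± 0.183 (SD) of central UMIs and 0.385% ± 0.137 of portal UMIs (n = 8 mice), lower centrally in 6 of 8 mice. The difference, central minus portal, was -0.0451 ± 0.117 (SD) in percent of UMIs (p = 0.3125 by an exact sign-flip permutation over mice, two-sided, where 0.0078125 is the lowest reachable). Without mouse 7 it was -0.0778 and passed the test. Alb (-0.37 ± 0.0881, adjusted p = 0.0024) and Trf (-0.47 ± 0.111, adjusted p = 0.00256) were called, both lower centrally, in 7 of 8 mice. Alb lost its call in 9 of 27 settings and Trf in 11, both with DESeq2, a stricter count filter and without the block, Alb also without mouse 8 (-0.2515) and Trf without mouse 3 (-0.4305). None of 14 pericentral and none of 14 periportal hepatocyte genes was called: Cyp2e1, a pericentral enzyme, was at 104 to 299 CPM against 59.2 to 266 CPM (-0.01 ± 0.142, adjusted p = 0.999), and Cps1, a periportal one, at 478 to 1254 CPM against 488 to 1843 CPM (-0.17 ± 0.088, adjusted p = 0.705). No Kupffer (12 tested), leukocyte (8) or cholangiocyte gene (4) was called, with medians of 0.26, -0.11 and -0.55. At 1.64% of all genes, lists of this size are near 0 calls as well, so these counts say little. Of 7 stellate genes tested Hgf was called, with a median of -0.46. The member of each list with the most counts, Slc40a1, Ebf1 and Onecut1, had log2 differences of -0.23 ± 0.162 (adjusted p = 0.902), 0.47 ± 0.359 (adjusted p = 0.919) and -0.40 ± 0.212 (adjusted p = 0.722).

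Levels were also read along the balance of C and P over all 1982 nuclei. From nuclei with P at least 4 above C (370 nuclei) to those with C at least 4 above P (312 nuclei), Cdh13 went through 325, 409, 579, 613, 996, 1089.7 and 2495 CPM over 7 bins of the summed UMIs of all mice. Mecom went the other way through 375, 262, 133, 79, 66.7, 46.4 and 30 CPM, and Msr1 through 965, 628, 427, 391, 399, 281 and 229 CPM. Cdh13 and Mecom moved in the same direction at every step, and Msr1 did so at 5 of the 6 steps. Lhx6 stayed at 1.1 to 28.1 CPM in the first 6 bins and reached 85.3 CPM only in the last, and Adgrg6 stood at 138 CPM in the first and 30.7 CPM in the second, with 2.67 to 7.18 CPM in the others. Slc45a4 was likewise at 108 CPM in the first bin and 1.41 to 20.9 CPM in the others. The bins differ in depth, with median UMIs per nucleus of 3265 and 4025 at the ends and 1846 at a balance of 0, and the values are a description of the pooled sums without a test.

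**Figure D4:**
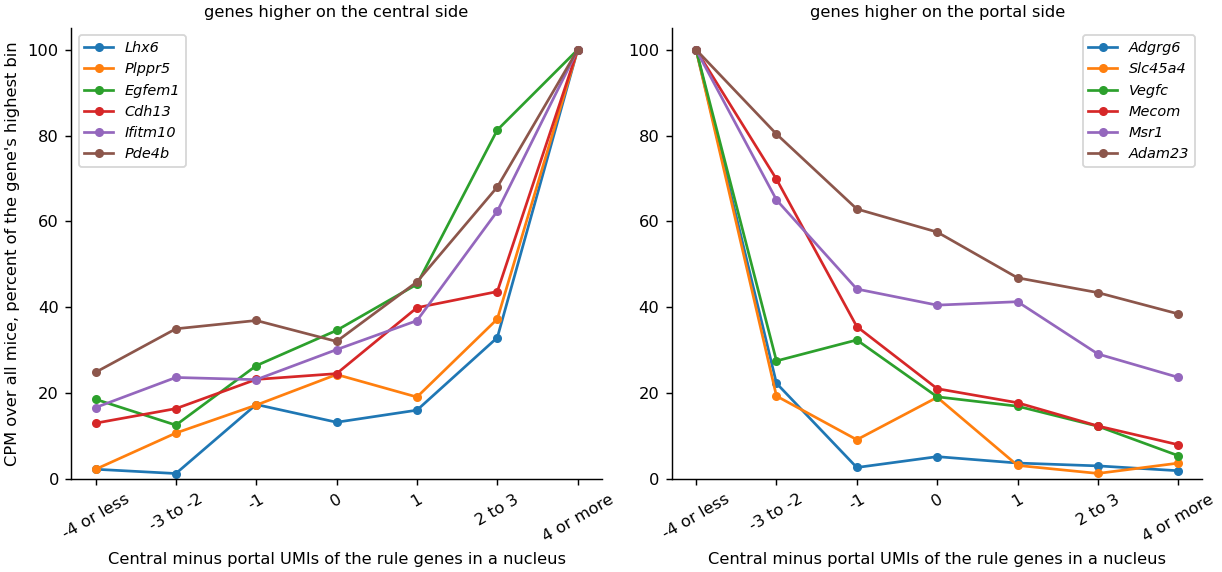
Level of 6 central genes (left) and 6 portal genes (right) in 7 bins of C minus P over the 1982 nuclei, as CPM of the summed UMIs of all mice in percent of the gene's highest bin. Every central gene is highest in the last bin and every portal gene in the first, Adam23 and Msr1 with a gradual slope and Adgrg6 and Slc45a4 with a steep one.

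A split of the central side by Rspo3 or Wnt9b, chosen after seeing the data, is given as a description. Both are genes of the rule, and a gene that changes with C can differ between such subsets. The split therefore cannot show whether the central side holds separate groups of nuclei. Central nuclei with a UMI of either numbered 132 (5 to 50 per mouse), and 436 had neither. Lhx6 was at 192 ± 113 CPM (SD, n = 8 mice) in the former and 29 ± 22 CPM in the latter, and Cdh13 at 3943 ± 638 and 1413 ± 355 CPM, with 624 ± 156 CPM for Cdh13 in nuclei of neither side. Zfp423 was at 157 ± 55.5 CPM with Rspo3 or Wnt9b and at 30.9 ± 17.7 CPM without, close to the 35.3 ± 24 CPM of nuclei on neither side. Msr1 fell to 83 ± 55.7 CPM in the nuclei with Rspo3 or Wnt9b, against 290.3 ± 82.2 CPM in the other central nuclei and 744 ± 192 CPM in portal nuclei with Dll4, Efnb2 or Efnb1. Flrt2 was at 139 ± 143 CPM in the former, where it ran from 0 to 410.2 CPM between mice, at 18.3 ± 15.8 CPM in the other central nuclei and at 111 ± 44.4 CPM in the latter. Ntf3, in contrast, was much alike in both central subsets, at 166 ± 57.2 and 138 ± 81.4 CPM. The stellate list summed to 22 to 287 CPM (median 186) in the nuclei with Rspo3 or Wnt9b.

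With those 132 nuclei and any other carrying Rspo3 or Wnt9b left out, 136 genes were called, 48 central and 88 portal, and 127 of them were among the 232. Cdh13 (1.81), Plppr5 (2.60), Egfem1 (1.96) and Lhx6 (2.28) kept their calls, at the log2 differences given. Zfp423 (0.53, adjusted p = 0.892), Piezo2 (1.42, adjusted p = 0.0695) and C1qtnf7 (1.07, adjusted p = 0.26) did not. This removal took 132 of 568 central nuclei, chosen by 2 genes of the rule, and was not set against a removal of other nuclei of the same number.

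In Cell Suspension of the same mice the rule gave 228 central nuclei (8 to 49 per mouse) and 366 portal nuclei (17 to 99) of 1068. There 80 of 10221 genes tested (0.783%) differed, 24 (0.235%) higher on the central side and 56 (0.548%) on the portal side, a split of 46 and 40 when the sums were scaled by relative log expression instead. An unadjusted p under 0.05 was reached by 626 genes. Of the 232 genes called in Liver, 226 were tested in Cell Suspension, 205 of them (90.7%) had the same sign, and 61 were called, all in the same direction. These 61 were 26.3% of the Liver calls and 76.2% of the Cell Suspension calls. The 90.7% stands without the same-sign share over all genes tested in both sample types. The nuclei of the 2 sample types are separate, but the mice are the same.

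The leading genes tested in both sample types had the same sign, and their sizes varied. Cdh13, at 2.28 in Liver, differed by 1.69 in Cell Suspension (adjusted p = 2.25e-28). Lhx6 differed there by 4.25 (adjusted p = 9.80e-05), on only 33 central UMIs and 1 portal UMI. Ifitm10 differed by 2.18 (adjusted p = 2.76e-05), Pde4b by 1.76 (adjusted p = 3.11e-13) and Plppr5 by 2.11 (adjusted p = 0.00953) in Cell Suspension. On the portal side Vegfc, at -3.07 in Liver, differed by -4.22 (adjusted p = 1.41e-09), Adgrg6 by -4.46 (adjusted p = 1.19e-05), Mecom by -2.64 and Msr1 by -1.90 (adjusted p = 1.82e-17 for both), and Adam23 by -1.27 (adjusted p = 1.54e-18). Slc45a4 had no UMI in any central sum there, and was portal-high in 5 of 8 mice. Egfem1 (1.24, adjusted p = 0.172), Fam19a2 (1.69, adjusted p = 0.427), Piezo2 (0.96, adjusted p = 0.868), Zfp423 (0.84, adjusted p = 0.866), C1qtnf7 (1.10, adjusted p = 0.932), Ntf3 (1.32, adjusted p = 0.0927), Gm35533 (-1.69, adjusted p = 0.0804) and Clca3a1 (-1.58, adjusted p = 0.81) had the Liver sign without passing the test. The venous list had 3 of 10 genes called, all central (Cdh13, Ptgs1 and Lhx6, against 0.235% of all genes tested there), and the arterial and portal list 4 of 10, all portal (Msr1, Vegfc, Cd36 and Adgrg6, against 0.548%). A joint edgeR test, added after seeing the data, asked whether the side difference itself differed between Liver and Cell Suspension. In it 2 of 14954 genes were called (3 with RLE scaling), Cth and Slc7a2, and none of the other called genes named above. An unadjusted p under 0.05 was reached by 592 of the 14954 genes, among them 8 of the 70 named genes tested. They were Cdh13 (unadjusted p = 0.000687, adjusted p = 0.684), Trf (0.00391), Cps1 (0.00857), Egfem1 (0.0152), Cyp2e1 (0.0365), Alb (0.0372), Tfec (0.0378) and Lama4 (0.0466), the last 7 with an adjusted p of 1.

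**Figure D5:**
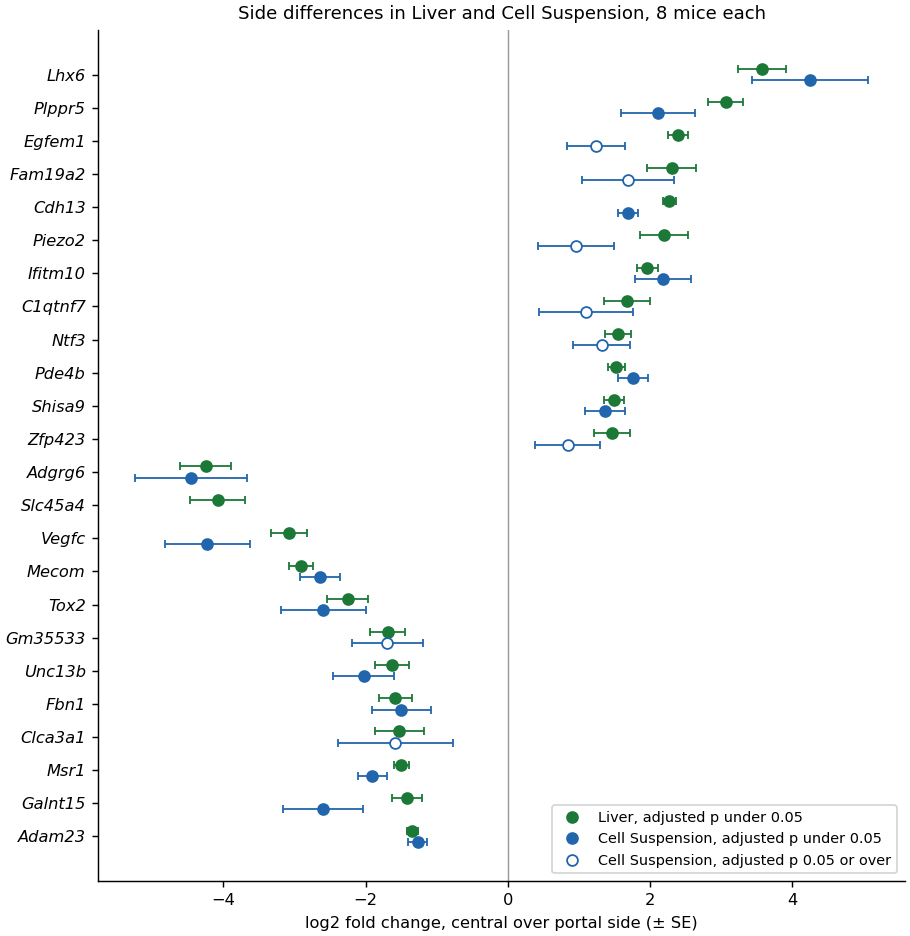
Log2 fold change, central over portal side, of the 24 leading genes in Liver (green) and Cell Suspension (blue), over 8 mice each, with bars of 1 SE and open points where the adjusted p did not pass. No Cell Suspension point is drawn for Slc45a4 because its central sums held 0 UMIs there, and the 23 others have the same sign in both.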

How the data were processed

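Nuclei of 24 samples (8 mice as Liver, Cell Suspension and Primary Hepatocytes) were sequenced by the authors in 6 pools of hashtagged 10x 3′ libraries. Per the labels and the study's methods, reads were demultiplexed with bcl2fastq 2.19.0 and quantified with Salmon alevin and alevin-fry against spliced and unspliced GRCm38 transcripts, giving the deposited counts (whole UMIs per gene and nucleus, not normalized). The authors assigned hashtags, removed empty droplets and doublets, and deposited a table of sample, cell type and cluster for each nucleus, which was used as given. The hashtag named CD2 was read as CS2. No further doublet caller was run. The UMI precision given here covers counting error only.

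For each gene the counts from spliced, unspliced and ambiguous molecules were pooled, and the nuclei of a side were summed within each mouse. The 10 rule genes were left out of the table and of library sizes. Genes with at least 10 counts over the sums were tested with edgeR 4.0.16 (R 4.3.3) by the quasi-likelihood test with TMM scaling, mouse as a block and Benjamini-Hochberg adjustment over all genes tested, at a threshold of 0.05. Liver needed 10 and Cell Suspension 5 nuclei per side and mouse. Log2 values are central over portal, and CPM values are scaled by TMM except over bins, subsets and lists. SE of a log2 difference is its absolute value divided by the square root of the F value of the test. It is not a standard error of the fitted coefficient. For genes with few UMIs on a side, such as Adgrg6 and Slc45a4, it can lie below counting error. In the edgeR fits, SE and p draw on a spread pooled over genes. They do not measure the spread of a single gene between mice alone. The same steps were tested on simulated data. The hepatocyte share was compared by an exact sign-flip permutation test. Each mouse gives 1 pair of sums from 1 organ, so the pairing comes from the design. Over 6594 genes the deviations of both sums of a mouse correlated at 0.0661 to 0.387 (median 0.131), against a median of -0.0288 between mice.

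Members, lists and motifs were chosen with earlier results of these data known. Named genes are the 10 rule genes, the 12 largest differences in each direction among called genes with at least 20 CPM on average and the same sign in every mouse, every called member of 24 lists, and for a list without a call the member with the most counts. Cth and Slc7a2 were named after their values were seen. Alternatives were RLE and TMMwsp scaling, DESeq2 1.42.0, other count filters, no block, other thresholds of the rule, matched or thinned depth, and unspliced or spliced counts alone. Further ones were all endothelial clusters, each mouse left out, and no nuclei with Kupffer, stellate, leukocyte or cholangiocyte markers. The split by Rspo3 or Wnt9b and the joint test with Cell Suspension were added after seeing the data. Primary Hepatocytes were not used.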

Additional observations from a re-analysis of the deposited data

Results flagged for a closer look

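Among 54 sets of 8 values (the leading genes on each side, and the depth, cluster share and hepatocyte share of each side), 6 held a mouse far from the others, where chance gives about 1 in 20. Mouse 2 had the highest central Pde4b at 678.2 CPM (next 440.3), the highest central Shisa9 at 642.0 CPM (next 341.4) and the highest portal Shisa9 at 196.9 CPM (next 116.7). Central Slc45a4 was highest in mouse 4 at 12.34 CPM (next 5.417), central Tox2 in mouse 8 at 44.53 CPM (next 19.34) and central Unc13b in mouse 6 at 75.27 CPM (next 33.59). Slc45a4 had few central UMIs, as given above, so its gap between mice rested on very few molecules. Mouse 6 had the fewest central nuclei, 24. All 5 genes were called in Liver with every mouse included.

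The side difference itself differed between sample types for Cth, the enzyme that makes cysteine from cystathionine, and Slc7a2, a cationic amino acid transporter, in the edgeR joint test. For Cth the log2 difference was -0.34 in Liver (61.2 against 79.8 CPM, central higher in 2 of 8 mice, adjusted p = 0.77) and 1.20 in Cell Suspension (216 against 87.2 CPM, 5 of 8 mice, adjusted p = 0.00542), a gap of 1.575 (adjusted p = 0.0283). For Slc7a2 it was -0.15 in Liver (617 against 685 CPM) and 0.67 in Cell Suspension (765 against 488 CPM, 5 of 8 mice, adjusted p = 0.0149), a gap of 0.8407 (adjusted p = 0.0437). Over all Liver nuclei of each type, Cth stood at 369 CPM in hepatocytes and 68.9 CPM in endothelial cells, and Slc7a2 at 3274 and 575 CPM. The part of hepatocyte RNA in both gaps was not tested.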

How the results depend on the processing

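The Liver count of 232 genes (115 central, 117 portal) changed by over 1.5 times under 7 settings. DESeq2 with the same block called 124 (74 and 50). Thinning each nucleus to 1000 UMIs before the choice called 82 (21 and 61), spliced and ambiguous counts alone 45 (13 and 32), all endothelial clusters 642 (342 and 300), and leaving out nuclei with Rspo3 or Wnt9b 136 (48 and 88). Without the block that pairs the sums of a mouse 95 were called (53 and 42), 94 of them among the 232, and 146 (80 and 66) with the pool as a covariate instead. With 1 mouse left out the count ran from 166 (without mouse 3) to 247, with 83 to 122 central and 83 to 128 portal genes. RLE scaling gave 131 central and 98 portal calls.

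In Cell Suspension the 80 calls (24 central, 56 portal) became 22 without the block (8 and 14) and 33 with DESeq2 (18 and 15). The central calls were 46 with RLE scaling, against 40 portal ones, and 42 where both sides needed 1 UMI. The portal calls were 29 with edgeR's own expression filter. With 1 mouse left out the count ran from 48 (without mouse 1) to 81, with 18 to 33 central and 26 to 59 portal genes. It was 50 without mouse 7, and the portal calls were 33 without mouse 2. The cause of these shifts was not tested. Of the rule genes, Efnb1 lost its call without mouse 5 (log2 -1.192; range over mice left out -1.812 to -1.192). The hepatocyte share passed its exact permutation test without mouse 7, with a difference of -0.0778 in percent of UMIs, and ran from -0.0778 to -0.0193 over mice left out.

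Of the 24 leading genes, 11 kept their call under each of the 25 to 27 settings in which a gene could be tested, and 20 under each but the thinned and the spliced one. Of all 64 called genes named, 13 kept it in every setting. Calls were lost by 38 with spliced counts, 29 thinned, 25 without the block, 22 without nuclei with Rspo3 or Wnt9b, 19 with DESeq2, and 2 to 10 with 1 mouse left out (19 genes in all). Sign changed for 3: Nkd1 (-0.0358) and Col4a2 (-0.2995) when thinned and Maml3 (-0.0536) with spliced counts. Of the genes uncalled in the main setting, Cps1 was called with the same sign in 3 of 27 settings, and Onecut1 and Ptprb in 1 of 27 each. Uncalled genes that changed sign follow. Cyp2e1 was at 0.0174 (RLE), 0.0125 and 0.0103 (stricter filters), 0.0245 and 0.0439 (both sides needing 1 or 2 UMIs), 0.0359 (spliced), 0.022 (all clusters), 0.0664 (no Rspo3 or Wnt9b) and -0.1965 to 0.1841 with 1 mouse left out. Ebf1 was at -0.0503 (DESeq2), -1.078 (thinned), -0.5803 (no markers of other types), -0.4223 (all clusters) and -0.6584 to 0.8847 with 1 mouse left out. It is itself a leukocyte marker of the lists, so its own UMIs counted in the setting without markers of other types. Ptprb was at -0.0299 (thinned), -0.0586 (spliced), -0.0489 (no Rspo3 or Wnt9b) and -0.002595 to 0.1042 with 1 mouse left out.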
